A study of Mus musculus with 16 samples.

Results

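The 9 genes described here encode the machinery that makes selenocysteine and inserts it into proteins: Sephs1, Sephs2, Scly, Pstk, Sepsecs, Trnau1ap, Secisbp2, Secisbp2l and Eefsec. They were taken by symbol from the 18209 rows of the table that carry a gene identifier. All 9 were found once, and all 9 were among the 15781 genes tested. Their mRNAs were followed in the livers of 20-day-old mice, labelled male, with 4 replicate libraries in each of 4 genotypes. All 4 genotypes carry Trsp fl/fl, a floxed allele of the gene for the selenocysteine tRNA. The Trsp fl/fl mice have no Cre and serve as controls. The Trsp fl/fl::AlbCre mice carry a Cre driven by the albumin promoter, which acts in hepatocytes, so the other cells of the liver keep their Trsp gene. Mice with the genotype Keap1 C226S&C613S homo::Trsp fl/fl, called the Keap1 mutant below, are homozygous for a Keap1 allele in which 2 sensor cysteines, C226S and C613S, are replaced by serine, and those of genotype Keap1 C226S&C613S homo::Trsp fl/fl::AlbCre, called the Keap1 mutant with AlbCre, carry this allele together with the Cre. The question addressed by these genotypes is how selenoprotein deficiency in the liver acts through KEAP1, the repressor of the transcription factor NRF2.

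Unlike other amino acids, selenocysteine is built on its tRNA in animal cells. Seryl-tRNA synthetase first loads the tRNA with serine, the kinase PSTK phosphorylates the serine, and SEPSECS exchanges the phosphate for selenium from selenophosphate, which SEPHS2 makes. The finished tRNA is read at a UGA codon, normally a stop, when the mRNA carries a hairpin called a SECIS element that binds SECISBP2 and thereby recruits the elongation factor EEFSEC. The liver is the main source of circulating selenoprotein P and of the selenium it carries to other organs.

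Sephs2 stands apart among the 9 genes because its own mRNA contains the UGA codon, so the enzyme is both a part of the machinery and one of its products. Its paralog Sephs1 has no selenocysteine codon. The stretches below are shown because they mark this difference, together with the codons of Gpx1 and Selenow, the selenoprotein mRNAs used for comparison. Each runs from 30 bases before to 30 bases after the codon in capitals, which is TGA in Sephs2, Gpx1 and Selenow and the aligned codon ACA in Sephs1.
Sephs2: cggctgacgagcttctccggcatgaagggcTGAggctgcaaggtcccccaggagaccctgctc
Sephs1: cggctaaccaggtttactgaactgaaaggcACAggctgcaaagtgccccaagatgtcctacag
Gpx1: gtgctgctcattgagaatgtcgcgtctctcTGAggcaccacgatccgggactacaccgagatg
Selenow: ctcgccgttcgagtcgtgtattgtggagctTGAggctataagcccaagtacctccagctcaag

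The sequences are from the GENCODE M21 transcripts on GRCm38, and all coordinates below use this build and annotation, which is older than the transcript release the authors used. In Sephs2 the TGA is codon 63, at chr7:127273731-127273733 on the minus strand. The Sephs2 transcript has 1 exon, so no exon junction follows the TGA. In Gpx1 the TGA is codon 47 and 1 junction follows it, 105 bases downstream. In Selenow the TGA is codon 13 and 4 junctions follow, the last of them 243 bases downstream. The 8 other genes of the machinery have between 6 and 18 exons and no selenocysteine codon.

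The libraries held between 11324801 and 19106191 recovered reads (median 15449256), and correlations across genes between libraries of 1 genotype were between 0.948 and 0.983. Albumin mRNA, which marks hepatocytes, took from 4.89% to 10.78% of the reads. Trsp has no row in the table under that name, and its deletion was not analysed here. Gpx1 and Selenow mRNA, which fall when the selenocysteine tRNA is lost, changed by -2.11 and -1.39 on the log2 scale in Trsp fl/fl::AlbCre against Trsp fl/fl (limma adjusted p = 6.2e-05 and 8.2e-05). Nqo1, an NRF2 target, changed by 2.27 in that comparison, and by -1.82 in the Keap1 mutant against Trsp fl/fl (limma adjusted p = 3e-05 and 0.0015). One library goes against its label. The Keap1 mutant with AlbCre replicate 1 had 28799 reads on Xist and 2 on the Y-linked genes Ddx3y, Uty, Kdm5d and Eif2s3y, against 22 to 50 and 1830 to 3066 in the other 15 libraries. It is called the mismatched library below, and the changes, counts of calls and averaged ratio differences that use it are given with and without it.

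Values below are log2(normalized count + 4) as deposited, and changes are differences of their means, which understate the change of weakly expressed genes. Replicates carry running numbers in their labels and were taken as separate mice. RNA was taken from whole liver, so fewer cells of a type and less RNA per cell cannot be told apart.

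The 9 mRNAs differed widely in abundance. Levels of different genes were compared as normalized counts per kilobase of transcript, over all 16 libraries. Sephs2 was by far the most abundant, at 5444.3 ± 982.5 per kb (SD, n = 16), 10.3-fold above the next gene, and at 5535.2 ± 944.7 per kb without the mismatched library (SD, n = 15). Scly followed at 528.4 ± 73.0 per kb, 2.18-fold above Secisbp2l. The ranges of Sephs2 and of Scly lay wholly above that of the gene next below. Secisbp2l (241.9 ± 19.3 per kb) and Sepsecs (234.8 ± 28.5 per kb) overlapped each other, and Sepsecs also reached down to Eefsec. Eefsec (126.4 ± 24.2 per kb), Trnau1ap (115.7 ± 22.4 per kb), Sephs1 (96.7 ± 9.4 per kb), Secisbp2 (75.2 ± 11 per kb) and Pstk (58.8 ± 6.8 per kb) formed a continuous lower range, each overlapping the next. The order of the 9 means was the same without the mismatched library. The level of Pstk rests on 45 to 82 reads per library and that of Trnau1ap on 96 to 174, so counting error is larger there than for Sephs2, with 8641 to 15359 reads.

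**Figure D1:**
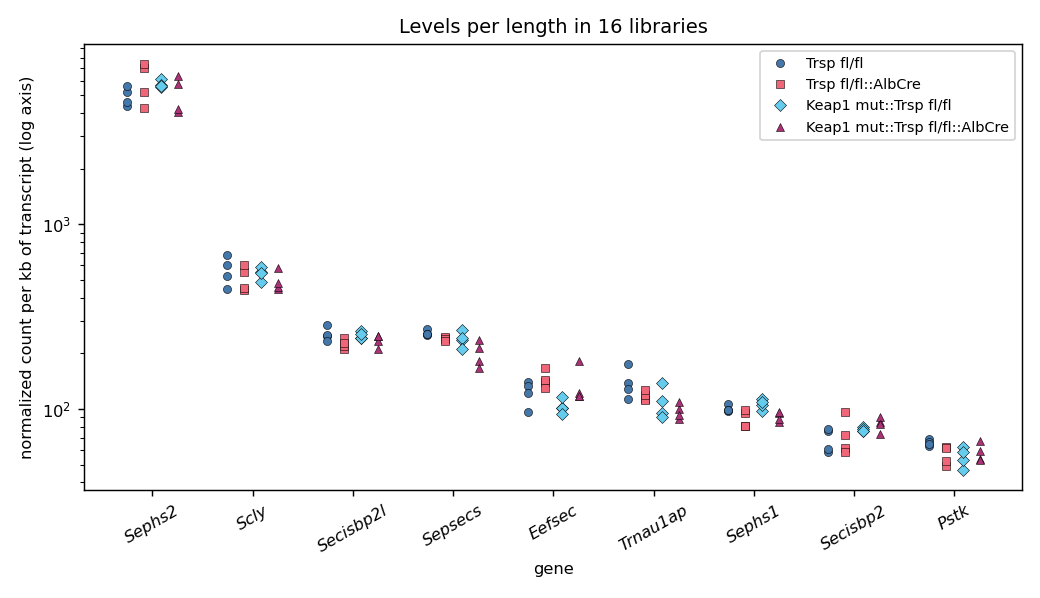
Normalized count per kilobase of transcript (log axis) for the 9 genes in each of the 16 libraries, with symbols for the 4 genotypes; Keap1 mut stands for Keap1 C226S&C613S homo. Sephs2 lies between 4079.9 and 7369.7 in all libraries, and Scly, the next gene, between 442.2 and 685.4.

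None of the 9 mRNAs was called in any comparison, whether at the thresholds of the study (absolute log2 fold change over 1 and limma adjusted p under 0.01) or at an adjusted p under 0.05 of any size. Limma voom on the recovered reads called 0 of 9 in each comparison too. In Trsp fl/fl::AlbCre against Trsp fl/fl, 0 of 9 were called, where 0.215% of all genes tested were called at the thresholds of the study and 0.558% at an adjusted p under 0.05. The 9 changes had a median of -0.13, where the median over all genes tested was -0.015, and ran from -0.22 to 0.24. Their 95% intervals stayed within -0.55 and 0.63, that is, between 0.685-fold and 1.55-fold. No member had an unadjusted p under 0.05, which 11% of all genes had. The values of the groups did not overlap for 2 of 9 members, Pstk and Sepsecs, both lower with AlbCre, where 6.01% of all genes had groups that did not overlap.

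In the Keap1 mutant with AlbCre against the Keap1 mutant, 0 of 9 were called as well, with 0.171% and 0.798% of all genes called under the same rules. The 9 changes had a median of -0.14 against -0.005 over all genes, and ran from -0.27 to 0.36, with intervals between -0.58 and 0.68. Sephs1, Sepsecs and Eefsec had an unadjusted p under 0.05, 3 of 9 members, where 13.6% of all genes had one. The groups did not overlap for Sephs1 and Eefsec, 2 of 9, against 7.69% of all genes. Without the mismatched library the 9 changes ran from -0.24 to 0.42, with a median of -0.09. None was called, where 0.387% of all genes had an adjusted p under 0.05. Eefsec alone, 1 of 9, then kept an unadjusted p under 0.05, where 10.6% of all genes had one. In Keap1 wild type, where the library enters only through the common spread, its removal brought Secisbp2l under an unadjusted p of 0.05, 1 of 9 against 11.4% of all genes.

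The Keap1 mutation gave 0 of 9 calls without AlbCre, where 0.0127% of all genes were called at the thresholds of the study and 0.0887% at an adjusted p under 0.05. It gave 0 of 9 with AlbCre, where the shares were 0.57% and 2.07%. The medians of the 9 changes were -0.04 and -0.06, beside -0.006 and 0.006 over all genes. In each of these 2 comparisons 1 member had an unadjusted p under 0.05, Trnau1ap without AlbCre and Sepsecs with it, against 9.07% and 17.6% of all genes. The groups did not overlap for Pstk without AlbCre (6.23% of all genes) and for Trnau1ap with AlbCre (8.61% of all genes). Leaving out the mismatched library gave changes with AlbCre from -0.24 to 0.21 and a median of -0.02. There were 0 calls, where 1.03% of all genes had an adjusted p under 0.05. No member then had an unadjusted p under 0.05, against 13.3% of all genes. Without replicate 4 of that genotype, 1 of 9 members, Sepsecs, passed an adjusted p of 0.05, as described with that gene. In that setting 1092 of the 15781 genes tested passed it.

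Averaging the AlbCre effect over both Keap1 genotypes gave the narrowest intervals. Again 0 of 9 were called, where 0.266% and 1.66% of all genes were. The median of the 9 changes was -0.14 against -0.011 over all genes, and the intervals lay between -0.41 and 0.53, that is, between 0.753-fold and 1.44-fold. Sephs1, Sepsecs, Secisbp2l and Eefsec had an unadjusted p under 0.05, 4 of 9, where 13.8% of all genes had one. After adjustment over all genes the smallest p of the 9 was 0.15. The difference of the AlbCre effect between the Keap1 genotypes, tested as an interaction, was called for 0 of 9 members (0.057% and 0.0951% of all genes) and had wider intervals, from -0.99 to 0.71. Unadjusted, 0 of 9 were under 0.05, where 10.8% of all genes were. The averaged effect and the interaction use the same libraries as the single comparisons. With the mismatched library left out, both gave 0 calls, where 1.52% and 0.0824% of all genes had an adjusted p under 0.05. The median of the averaged changes was then -0.11. Secisbp2l then left the count of unadjusted p under 0.05 in the averaged effect, which was 3 of 9, against 13.3% of all genes.

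**Figure D2:**
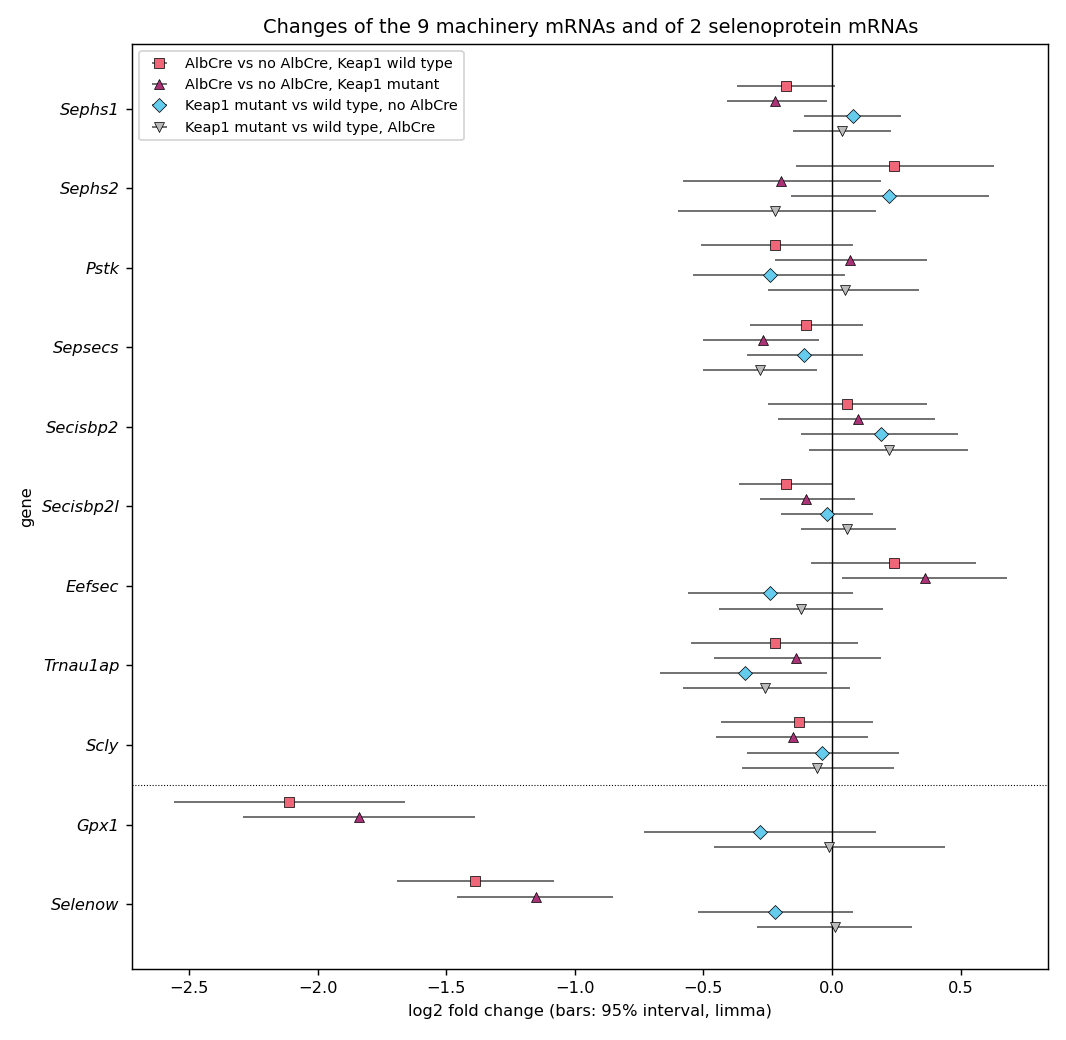
Log2 fold changes (x axis, with 95% intervals from limma) of the 9 machinery mRNAs in 4 comparisons, with Gpx1 and Selenow under the dotted line for comparison. The intervals of the 9 lie between -0.67 and 0.68, whereas Gpx1 lies at -2.11 and -1.84 and Selenow at -1.39 and -1.15 in the AlbCre comparisons.

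Selenophosphate synthetase 2, encoded by Sephs2 (ENSMUSG00000049091, chr7:127271879-127274055, minus strand), makes the selenium donor for selenocysteine. Its mRNA was at 13.22, 13.28, 13.48 and 13.57 in the Trsp fl/fl libraries, at 13.90, 13.97, 13.18 and 13.48 in Trsp fl/fl::AlbCre, at 13.71, 13.60, 13.56 and 13.59 in the Keap1 mutant, and at 13.12, 13.61, 13.17 and 13.76 in the Keap1 mutant with AlbCre. Both AlbCre genotypes contained 2 high and 2 low libraries and overlapped their controls. The Trsp fl/fl libraries also fell into 2 lower and 2 higher, with a smaller gap. The change with AlbCre was 0.24 (SE 0.18, 95% interval -0.14 to 0.63) in Keap1 wild type and -0.20 (SE 0.18, interval -0.58 to 0.19) in the mutant, with limma adjusted p = 0.65 and 0.7. These opposite signs did not differ beyond the spread, since the interaction was -0.44 (interval -0.99 to 0.11, limma adjusted p = 0.54). Under quantile normalization the change in the mutant was 0.05, so its direction depended on the scaling. The averaged change was 0.02 (interval -0.25 to 0.30). Without the mismatched library the change in the mutant was -0.10 (interval -0.50 to 0.30), the interaction -0.34 and the averaged change 0.07.

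Sephs1 (ENSMUSG00000026662, chr2:4881564-4910557, plus strand) encodes the paralog, which lacks the selenocysteine codon and does not supply selenophosphate for selenoproteins. It was at 9.03, 9.15, 9.05 and 9.05 in Trsp fl/fl, at 9.0, 9.04, 8.76 and 8.77 in Trsp fl/fl::AlbCre, at 9.02, 9.14, 9.25 and 9.18 in the Keap1 mutant, and at 8.84, 8.99, 8.89 and 9.01 in the Keap1 mutant with AlbCre. In the mutant background all 4 AlbCre libraries lay below all 4 controls, by a narrow margin, and in Keap1 wild type the groups overlapped. The averaged change was -0.20 (SE 0.06, interval -0.33 to -0.06), the smallest unadjusted p of the 9 members in that effect (0.0069), with a limma adjusted p of 0.15. Leaving out the mismatched library gave -0.18, with a limma adjusted p of 0.22. The ratio of Sephs2 to Sephs1 within a library, on the log2 scale, was 4.31 ± 0.19 in Trsp fl/fl, against 4.74 ± 0.24 in Trsp fl/fl::AlbCre (SD, n = 4 each). The difference of 0.42 had p = 0.086 in a two-sided exact permutation test over 70 arrangements, whose smallest possible p is 0.0286, and 0.26 after Benjamini-Hochberg adjustment over the 15 tests of 3 planned ratios. In the mutant background the ratio was 4.46 ± 0.16 and 4.48 ± 0.24 (SD, n = 4 each), and averaged over both backgrounds the difference was 0.22, with an exact permutation p of 0.076 (adjusted 0.26). These differences were 0.09 in the mutant and 0.26 averaged without the mismatched library, with unadjusted exact permutation p of 0.57 and 0.044.

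Scly (ENSMUSG00000026307, chr1:91298338-91321075, plus strand) encodes selenocysteine lyase, which releases selenium from free selenocysteine for reuse. Its values ran from 9.94 to 10.56 in Trsp fl/fl, from 9.93 to 10.39 in Trsp fl/fl::AlbCre, from 10.08 to 10.35 in the Keap1 mutant and from 9.94 to 10.33 in the Keap1 mutant with AlbCre. The 4 ranges overlapped almost wholly. The averaged AlbCre change was -0.14 (interval -0.35 to 0.07, limma adjusted p = 0.58), and -0.12 (interval -0.34 to 0.10) without the mismatched library.

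Selenocysteine is then made on the tRNA in steps catalysed by PSTK and SEPSECS. Pstk (ENSMUSG00000063179, chr7:131371141-131387839, plus strand) encodes the kinase that phosphorylates the serine on the tRNA. It ran from 6.24 to 6.36 in Trsp fl/fl, from 5.90 to 6.22 in Trsp fl/fl::AlbCre, from 5.83 to 6.23 in the Keap1 mutant and from 6.0 to 6.33 in the Keap1 mutant with AlbCre. The Trsp fl/fl libraries were the highest group and lay just above Trsp fl/fl::AlbCre and the Keap1 mutant, while the Keap1 mutant with AlbCre overlapped them. The changes of -0.22 with AlbCre and -0.24 with the Keap1 mutation had limma adjusted p = 0.59 and 0.64. The summed normalized counts of 8 erythroid markers also had their highest median in Trsp fl/fl, 54994, and ran from 33854 to 64695 in Trsp fl/fl, from 14791 to 35231 in Trsp fl/fl::AlbCre, from 12859 to 25545 in the Keap1 mutant and from 15504 to 96476 in the Keap1 mutant with AlbCre. All 8 were detected, and their part in the Pstk values was not tested.

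Sepsecs (ENSMUSG00000029173, chr5:52640087-52669708, minus strand) encodes the enzyme that forms selenocysteine on the tRNA. It was at 10.36, 10.47, 10.40 and 10.40 in Trsp fl/fl, at 10.33, 10.33, 10.30 and 10.27 in Trsp fl/fl::AlbCre, at 10.47, 10.29, 10.33 and 10.13 in the Keap1 mutant, and at 9.91, 10.14, 9.78 and 10.29 in the Keap1 mutant with AlbCre. The first 2 groups were tight and separated by a small step, and the Keap1 mutant with AlbCre held the lowest and most scattered libraries. There the change was -0.27 against the Keap1 mutant (interval -0.50 to -0.05, limma adjusted p = 0.26) and -0.28 against Trsp fl/fl::AlbCre (interval -0.50 to -0.06, limma adjusted p = 0.18). The latter was -0.36 with a limma adjusted p of 0.039 when replicate 4, the highest library, was left out. That omission also raised the number of all genes called in this comparison from 327 to 1092 of 15781. Without the mismatched library both changes were -0.24, with limma adjusted p of 0.48 and 0.38. The summed normalized counts of 8 hepatocyte markers also had their lowest median in the Keap1 mutant with AlbCre, 1336526. They ran from 841810 to 1673519 there, from 1493033 to 1868760 in Trsp fl/fl::AlbCre, from 1750539 to 2106631 in the Keap1 mutant and from 1533504 to 1851535 in Trsp fl/fl. Between the genotypes without AlbCre the sum went the other way. Its median was 1879685 in the Keap1 mutant and 1748055 in Trsp fl/fl, where mean Sepsecs was 10.30 and 10.41. Such a sum weighs the most abundant markers most, so it need not describe each of the 8. None of the 8 was at 0, and their part in the Sepsecs values was not tested.

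Trnau1ap (ENSMUSG00000028898, chr4:132311763-132329538, minus strand) encodes a protein that associates with the selenocysteine tRNA. Its values ran from 7.04 to 7.66 in Trsp fl/fl, from 7.02 to 7.20 in Trsp fl/fl::AlbCre, from 6.74 to 7.33 in the Keap1 mutant and from 6.70 to 7.0 in the Keap1 mutant with AlbCre. The Keap1 mutant groups had the lower means in both backgrounds, by 0.34 without AlbCre (change -0.34, interval -0.67 to -0.02, limma adjusted p = 0.52) and by 0.26 with it (change -0.26, interval -0.58 to 0.07, limma adjusted p = 0.4). In the AlbCre pair the groups did not overlap, and the change there was -0.21 (interval -0.57 to 0.14) without the mismatched library.

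Insertion at the UGA codon needs proteins that bind the mRNA and the tRNA. Secisbp2 (ENSMUSG00000035139, chr13:51651697-51684044, plus strand) encodes the SECIS-binding protein, and Secisbp2l (ENSMUSG00000035093, chr2:125736986-125782870, minus strand) its paralog. Secisbp2 ran from 7.64 to 8.04 in Trsp fl/fl, from 7.64 to 8.34 in Trsp fl/fl::AlbCre, from 8.0 to 8.07 in the Keap1 mutant and from 7.95 to 8.26 in the Keap1 mutant with AlbCre. The averaged AlbCre change was 0.08 (interval -0.14 to 0.30, limma adjusted p = 0.8), and 0.07 without the mismatched library. Secisbp2l was the least variable of the 9 over the 16 libraries, with an SD of 0.11, and its averaged change was -0.14 (interval -0.27 to -0.01, limma adjusted p = 0.33). With the mismatched library left out it was -0.11, and the interval of -0.24 to 0.02 included 0. The ratio of Secisbp2 to Secisbp2l, not corrected for length, was -2.92 ± 0.16 in Trsp fl/fl, -2.68 ± 0.36 in Trsp fl/fl::AlbCre, -2.71 ± 0.07 in the Keap1 mutant and -2.52 ± 0.21 in the Keap1 mutant with AlbCre (SD, n = 4 each). Averaged over both backgrounds it was higher with AlbCre by 0.22, which did not pass the threshold (exact permutation p = 0.056, adjusted 0.26), and by 0.18 without the mismatched library (exact permutation p = 0.11, unadjusted).

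Eefsec (ENSMUSG00000033216, chr6:88257334-88446539, minus strand) encodes the elongation factor that delivers the selenocysteine tRNA to the ribosome. It was at 8.56, 8.5, 8.38 and 8.04 in Trsp fl/fl, at 8.56, 8.81, 8.45 and 8.60 in Trsp fl/fl::AlbCre, at 8.10, 8.10, 8.0 and 8.31 in the Keap1 mutant, and at 8.33, 8.37, 8.32 and 8.94 in the Keap1 mutant with AlbCre. In the mutant background all 4 AlbCre libraries lay above all 4 controls, 3 of them only just and 1 far above. It had the largest averaged AlbCre change of the 9, 0.30 (SE 0.11, interval 0.07 to 0.53), with a limma adjusted p of 0.2. Without the high library, replicate 4 of the Keap1 mutant with AlbCre, the averaged change was 0.22, and without the mismatched library it was 0.33.

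**Figure D3:**
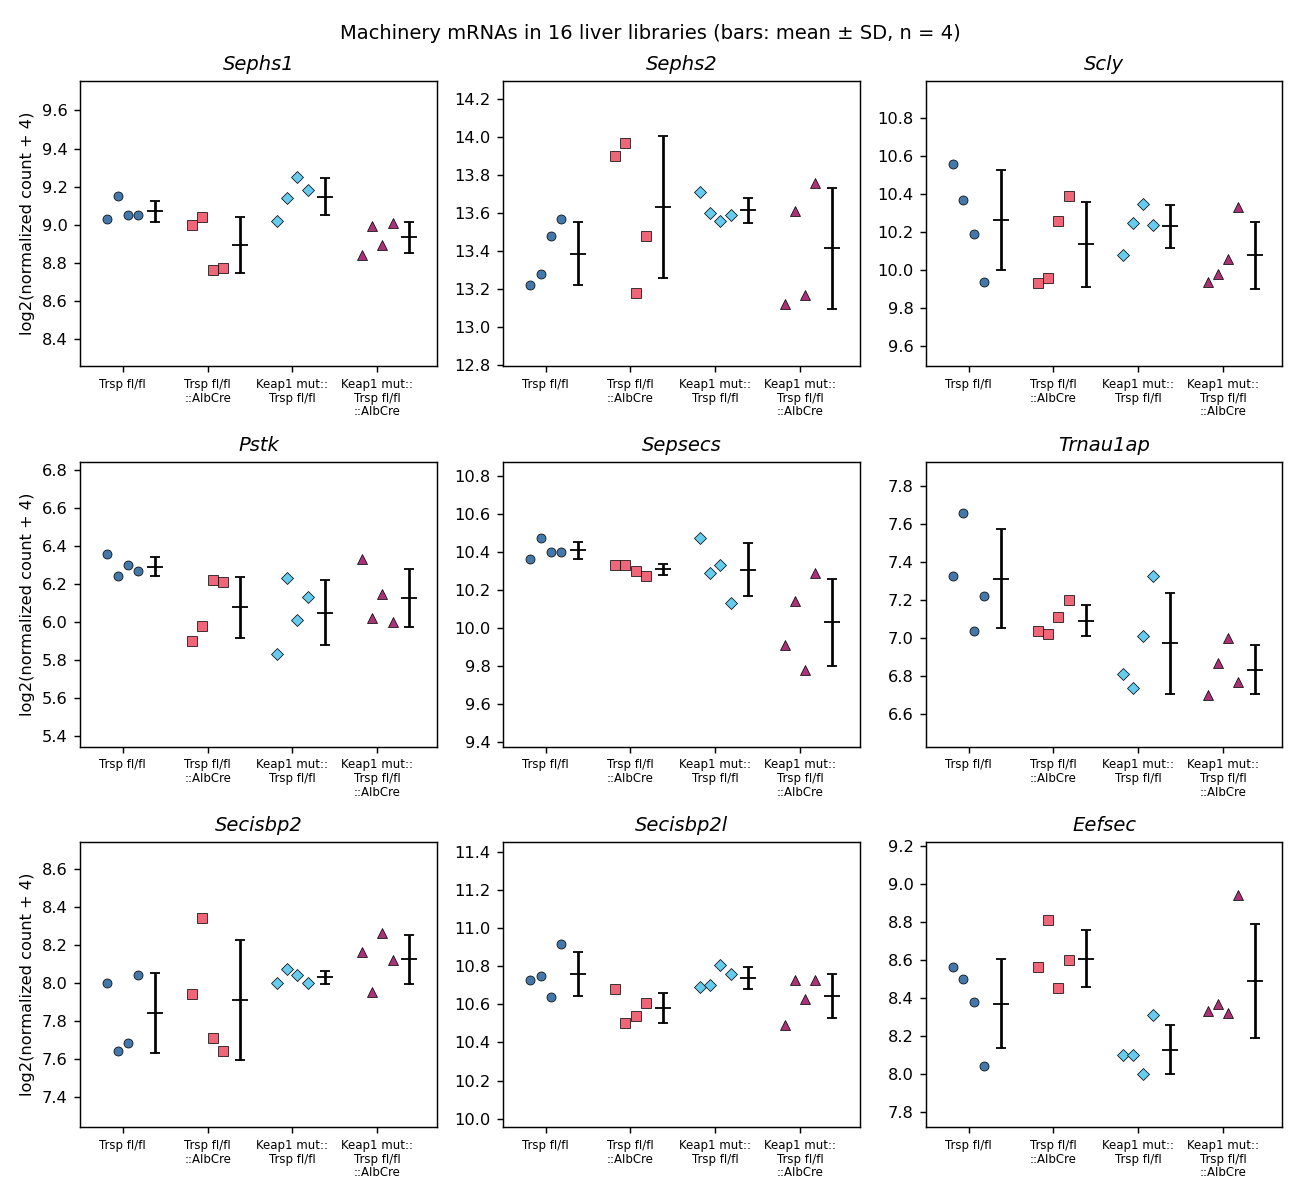
Deposited log2(normalized count + 4) of the 9 genes in the 16 libraries by genotype, with the mean ± SD (n = 4) beside each group; all panels have the same span and Keap1 mut stands for Keap1 C226S&C613S homo. The groups overlap for most genes, and 1 Eefsec library stands at 8.94. Sephs2 splits into high and low libraries in both AlbCre genotypes and, less widely, in Trsp fl/fl.

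The behaviour of Sephs2 was set beside that of the other selenoprotein mRNAs, which share its UGA codon. Of 23 others listed, 22 were in the table and 20 were tested. With AlbCre, 0 rose and 5 of 20 fell at an adjusted p under 0.05 in Keap1 wild type, 0 rose and 6 fell in the mutant, and 0 rose and 9 fell in the averaged effect, with medians of -0.59, -0.52 and -0.57 on the log2 scale. Of all genes tested, 0.558%, 0.798% and 1.66% were called in either direction in these comparisons. Leaving out the mismatched library gave 6, 5 and 8 falls, again with 0 rises, and medians of -0.59, -0.40 and -0.49. The shares of all genes called were then 0.665%, 0.387% and 1.52%. Selenoh was then called in Keap1 wild type, while Msrb1 in the mutant and Selenok in the averaged effect no longer were. Most of these losses were known from earlier results of these data. The largest averaged falls called were those of Gpx1 (-1.98, limma adjusted p = 1.6e-06), Selenow (-1.27, 2.8e-06), Selenoh (-1.19, 0.012) and Selenop (-1.16, 0.00012), which encode a peroxidase of the cytosol, a small redox protein, a nuclear redox protein and the selenium carrier of plasma. Without the mismatched library the changes of these 4 were -1.96, -1.30, -1.29 and -1.10. The averaged change of Sephs2 was 0.02 (interval -0.25 to 0.30), higher than that of 16 of the 20 (18 of 20 without the mismatched library). The 4 were picked as the largest falls, so their distance from Sephs2 does not describe the other selenoproteins.

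The averaged values join backgrounds whose signs were opposite for some genes, although the interaction was called for 0 of the 20 others and not for Sephs2. In Keap1 wild type its change of 0.24 lay above those of all 20 others, the highest of which was Selenoo at 0.10. In the mutant its change of -0.20 lay above 14 of the 20 (15 of 20 without the mismatched library), and the highest was Gpx3 at 0.90, or Selenom at 0.70 without that library. The averaged changes of Gpx4 (0.09), Selenom (0.13), Selenos (0.16) and Gpx3 (0.26) were above that of Sephs2, but all 4 were below 0 in Keap1 wild type and above 0 in the mutant. Selenom was at -0.56 and 0.82 in the 2 backgrounds, and the interaction of 1.38 did not pass (limma adjusted p = 0.27). Gpx3 was at -0.38 and 0.90, and its averaged change was -0.15 without the mismatched library.

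As described above, Sephs2 has no exon junction after its UGA. The 11 other selenoprotein transcripts with a last junction over 50 bases after the first UGA had a median averaged change of -0.79, with 8 of 11 below 0. Those 11 ranged from -1.98 for Gpx1 to 0.26 for Gpx3. The 7 without a junction after the UGA had a median of -0.28, from -0.77 for Txnrd2 to 0.16 for Selenos, and 6 of 7 were below 0. In Selenok and Msrb1 the last junction lies within 50 bases of the codon, and their changes were -0.70 and -0.68. Leaving out the mismatched library gave medians of -0.78 and -0.29, with 9 of 11 and 6 of 7 below 0. The classes overlap widely and were not tested against each other.

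**Figure D4:**
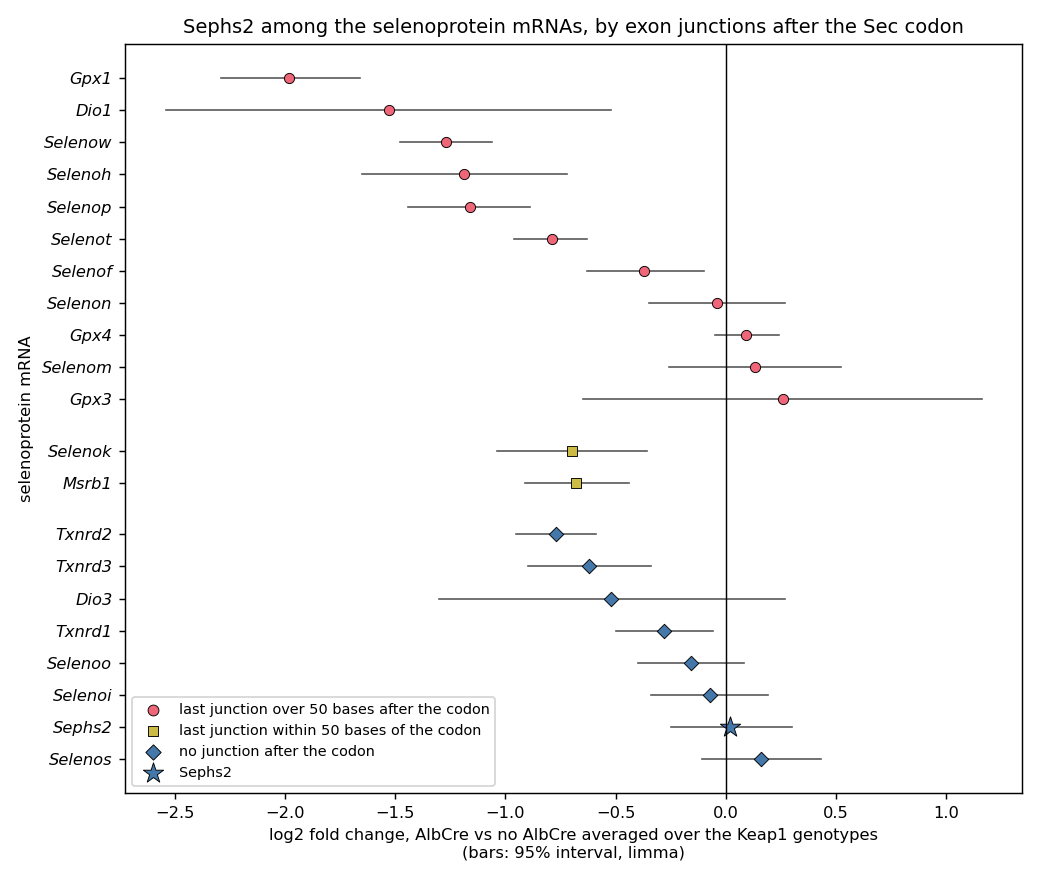
Log2 fold change with AlbCre, averaged over the Keap1 genotypes (x axis, 95% intervals from limma), of Sephs2 and 20 other selenoprotein mRNAs grouped by the exon junctions after their first selenocysteine codon. Sephs2, the star at 0.02, lies in the group without a junction, which spans -0.77 to 0.16.

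Within a library, the ratio of Sephs2 to the median of the 20 other selenoproteins was 3.93 ± 0.33 in Trsp fl/fl, against 4.61 ± 0.75 in Trsp fl/fl::AlbCre on the log2 scale, and 4.16 ± 0.21 and 4.38 ± 0.41 in the mutant background (SD, n = 4 each). This ratio was chosen after the data were seen. Most losses of selenoprotein mRNAs were known by then, with a median averaged change of -0.57 beside 0.02 for Sephs2. A higher ratio with AlbCre could thus be foreseen, and its test adds no support. The averaged difference was 0.45 (exact permutation p = 0.078, adjusted over 5 tests 0.39), and 0.51 without the mismatched library (unadjusted exact permutation p = 0.047). The Trsp fl/fl::AlbCre libraries were at 5.23, 5.26, 3.79 and 4.16, again 2 high and 2 low. Those of Trsp fl/fl, at 3.60, 3.71, 4.16 and 4.26, were split as well, over a narrower range. Against the median of the 8 other members of the machinery, the ratio of Sephs2 was 4.67 ± 0.28, 4.88 ± 0.25, 4.97 ± 0.13 and 4.70 ± 0.19 in the order of genotypes given at the start (SD, n = 4 each), and its averaged AlbCre difference was -0.02 (exact permutation p = 0.85, adjusted 0.91), and 0.00 without the mismatched library.

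Genes that work next to the 9 were examined in 5 further lists, chosen for their roles. Of the 12 tested genes that charge or modify the selenocysteine tRNA, 1 rose and 0 fell in the averaged AlbCre effect (median 0.01), where 1.66% of all genes were called in either direction. The gene that rose was Sars, seryl-tRNA synthetase, which begins the synthesis by loading serine: its averaged change was 0.43 (interval 0.23 to 0.62, limma adjusted p = 0.029), with changes of 0.15 in Keap1 wild type (limma adjusted p = 0.71) and 0.71 in the mutant (limma adjusted p = 0.018). These effects were not shown to differ (interaction 0.56, limma adjusted p = 0.36). Without the mismatched library the changes of Sars were the same, 0.43 averaged and 0.71 in the mutant, with limma adjusted p of 0.048 and 0.054, so the call in the mutant was lost.

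Among 19 tested genes for the transcription of the selenocysteine tRNA gene, 0 rose and 1 fell in the averaged AlbCre effect (median -0.04). It was Snapc5, a small subunit of the complex that binds the promoters of small RNA genes, with an averaged change of -0.71 (limma adjusted p = 0.0089), -0.36 in Keap1 wild type (adjusted p = 0.49) and -1.07 in the mutant (adjusted p = 0.011). The interaction was -0.70 (limma adjusted p = 0.39). Leaving out the mismatched library gave -0.68 averaged and -1.0 in the mutant, with limma adjusted p of 0.021 and 0.038. This is 1 gene of 19, beside the 1.66% of all genes called in the averaged effect. Of 9 genes for selenium uptake and small-molecule metabolism, 1 rose and 0 fell: Gsr, glutathione reductase, which also reduces selenium compounds, with an averaged change of 0.60 (limma adjusted p = 0.0045), and 0.61 (0.0081) without the mismatched library. With AlbCre, Gsr was called in Keap1 wild type and not in the mutant, with or without that library. The interaction was called for 0 of the 9. Selenbp2, a selenium-binding protein, had -1.56 (interval -2.52 to -0.61) but a limma adjusted p of 0.097, and -1.32 (0.16) without the mismatched library.

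No gene of the other lists was called in the averaged effect. Among 5 further SECIS or selenoprotein mRNA binding proteins the median was 0.00, and the largest changes were those of the ribosomal protein gene Rpl30 (0.23, limma adjusted p = 0.1) and the nucleolin gene Ncl (0.19, 0.43). Among 16 genes of nonsense-mediated decay and translation termination the median was 0.08, with Magohb at -0.30 (limma adjusted p = 0.7) and Smg9 at 0.26 (0.39). These 4 values were 0.25, 0.21, -0.37 and 0.30 without the mismatched library. Again no gene of these lists was called then, where 1.52% of all genes were. With the Keap1 mutation, 1 of the 81 genes tested in all lists, selenoproteins included, fell without AlbCre, where 0.0887% of all genes were called. It was Gpx4 (-0.60, limma adjusted p = 0.023). With AlbCre 2 of 81 fell, Snapc5 (-0.87, 0.019) and Gsr (-0.56, 0.048), near the 2.07% of all genes called there. Neither of the latter was called without the mismatched library, where Snapc5 was at -0.81 (limma adjusted p = 0.073) and Gsr at -0.54 (0.13), while Gpx4 was called at -0.60 (0.029). Of all genes, 1.03% with AlbCre and 0.114% without it were called then.

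Over the 16 libraries, the highest Pearson correlation between members was 0.64, for Sephs1 and Secisbp2l, and the lowest was -0.74, for Sephs2 and Pstk. After subtracting the genotype means these pairs were at 0.36 and -0.74, and the highest values were 0.66 for Sephs1 and Sephs2 and 0.58 for Sephs2 and Sepsecs. Without the mismatched library the pairs of Sephs1 with Secisbp2l and of Sephs2 with Pstk were at 0.58 and -0.71, and Sephs1 with Sephs2 within genotypes at 0.61. All libraries share 1 scaling and the genotypes differ in mean, so these are descriptions.

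The closest neighbours of each member among all genes tested were others. Sephs2 followed Cps1, carbamoyl phosphate synthetase of the urea cycle, with r = 0.96 over 16 libraries, 0.96 within genotypes and 0.96 without the mismatched library. The next were Slc20a2 (0.94), a phosphate transporter, and Fetub (0.93), a protein secreted by the liver. Cps1 varied within genotypes too. It was at 16.40, 16.45, 17.11 and 17.10 in Trsp fl/fl, and at 17.51, 17.80, 16.36 and 16.68 in Trsp fl/fl::AlbCre. In the Keap1 mutant it was at 17.38, 17.23, 17.13 and 17.16. In the Keap1 mutant with AlbCre it was at 16.32, 16.86, 16.28 and 17.58. Libraries of high and low Cps1 thus also occurred without AlbCre. Cps1 is among the hepatocyte markers, and its correlation with the other 8 members lay between -0.67 for Pstk and 0.46 for Sephs1. With Alb, another of these markers, Sephs2 had r = 0.28 only. The other 8 members lay between -0.49 for Secisbp2 and 0.68 for Sepsecs with Alb.

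Sepsecs followed Car5a, a mitochondrial carbonic anhydrase of the liver, with r = 0.97 (0.98 within genotypes), then Fmo1 (0.94) and Etfrf1 (0.93). In the Keap1 mutant with AlbCre, Car5a was at 7.93, 8.88, 7.66 and 9.22, in the same order of libraries as Sepsecs. Scly was nearest to Pter (0.93), Mfsd8 (0.92) and Snupn (0.91), and Eefsec to Usp5 (0.91), Zfp39 (0.85) and Tcaim (0.84). Sephs1 was nearest to Zfp791 (0.90), Cyp2d36-ps (0.89) and Tsc22d3 (0.87), and Trnau1ap to Cyp2c69 (0.86), Dek (0.85) and Dpm3 (0.84). Secisbp2l had Rcbtb1 (0.85), Usp25 (0.84) and Flt1 (0.82), and Secisbp2 had Cep350 (0.82), Gm35339 (0.82) and Braf (0.80). The neighbours of Pstk were Eps15, H2bc13 and the alpha-globin gene Hba-a1, an erythroid gene, each at 0.84. Each of these genes was picked as the highest among all the other genes tested. Without the mismatched library the 27 correlations lay between 0.81 and 0.96, and none was lower by more than 0.04.

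**Figure D5:**
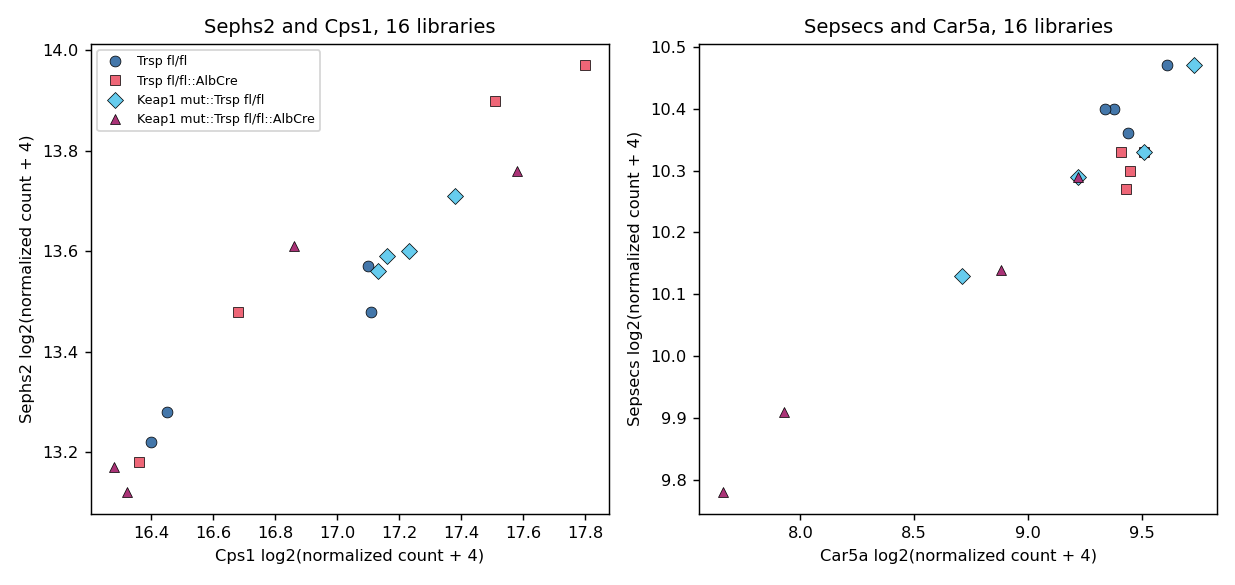
Deposited log2(normalized count + 4) of Sephs2 against Cps1 (left) and of Sepsecs against Car5a (right), 1 point per library in the 4 genotypes; Keap1 mut stands for Keap1 C226S&C613S homo. Sephs2 and Cps1 rise together (r = 0.96, 16 libraries), and 2 libraries of Keap1 mut::Trsp fl/fl::AlbCre lie lowest for Sepsecs and Car5a.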

How the data were processed

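Total RNA from the livers was depleted of rRNA, made into directional libraries and sequenced with paired ends on a DNBSEQ-G400RS instrument. The authors quantified reads with Salmon against GENCODE mouse transcripts and continued on the iDEP platform. They deposited 1 table of log2 values, which are log2(normalized count + 4): the lowest value is 2 in every library, and undoing the transformation gave whole reads for 100% of low values (tolerance 0.05). This differs from the TPM named in their methods, so limma took these log2 values as its input.

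Of 18578 rows, the 369 without a gene identifier (0.274% to 0.627% of reads) were left out. Genes whose normalized count reached 10 in 4 or more libraries were tested with limma 3.58.1 (R 4.3.3, lmFit and eBayes with trend, 16 libraries in 1 fit, Benjamini-Hochberg over 15781 genes). Ratios within a library were compared by exact permutation with Python 3.11.15. On simulated data for Trsp fl/fl::AlbCre against Trsp fl/fl, with 15781 genes, 99 of 100 genes changed by 1.5 on the log2 scale and 100 of 100 changed by 2 were recovered at the thresholds of the study, and 8 unchanged genes had an adjusted p under 0.05. Every simulated gene had the same spread, and only genes whose control mean exceeded a minimum count were changed. Real spreads differed, with an SD in Trsp fl/fl of 0.5 for Gpx1 and 0.05 for Sepsecs. Such recovery therefore need not hold for each gene. Changes as small as those of the members were not simulated. Counts per kb used the length of 1 GENCODE M21 transcript per gene.

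The members and gene lists were chosen with earlier results of these data known. Named were all 9 members, from each list up to 4 genes called in any comparison (otherwise the 2 with the largest averaged change), the 3 genes most correlated with each member, and Gpx1, Selenow, Nqo1, Alb and sex-linked genes as checks. Alternatives were other constants, filters and scalings, limma voom on recovered reads, eBayes without trend, fits of the compared groups alone, a replicate block, and each library left out.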

Additional observations from a re-analysis of the deposited data

Results flagged for a closer look

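In 1 of 36 groups of 4 libraries, a member gene had 1 library far from the other 3. Eefsec in replicate 4 of the Keap1 mutant with AlbCre was at 8.94, the highest of its group and of all 16 libraries, where the nearest of the other 3 was at 8.37. The gap was 0.926 of the group's range, above Dixon's 95% critical value for 4 samples. Chance gives a gap above that critical value in about 5% of groups.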

How the results depend on the processing

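Of 522 values of member changes under another constant, filter, scaling, test or set of libraries in the fit, 512 kept their direction and their side of an adjusted p of 0.05, and 10 changed sign. Under quantile normalization these were Sephs2 with AlbCre in the mutant (0.05), Sephs2 (0.13) and Scly (0.02) with the Keap1 mutation and AlbCre, and the interactions of Secisbp2 (-0.00) and Scly (0.08). Under library totals they were Secisbp2l with AlbCre in the mutant (0.03), Eefsec (0.01) and Scly (0.07) with the Keap1 mutation and AlbCre, and the interactions of Sephs1 (0.09) and Scly (0.11). The averaged AlbCre difference of the Sephs2 to other members ratio was 0.09 with the mean of the members in place of the median. The cause was not tested. Library totals moved the median change of all genes to 0.12 for AlbCre in the mutant, 0.13 for the Keap1 mutation with AlbCre and 0.13 for the interaction. The number of members called was 0 in all 58 such settings.

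Leaving out 1 library at a time changed the sign of 30 of 864 member changes. The ranges of these changes were -0.02 to 0.24 for the interaction of Eefsec, -0.12 to 0.09 for Scly, -0.06 to 0.18 for Secisbp2, -0.08 to 0.01 for Sephs1 and -0.03 to 0.20 for Trnau1ap. With the Keap1 mutation and AlbCre they were -0.02 to 0.10 for Pstk, -0.14 to 0.03 for Scly and -0.00 to 0.09 for Sephs1, and without AlbCre -0.14 to 0.06 for Scly and -0.06 to 0.04 for Secisbp2l. With AlbCre in Keap1 wild type Secisbp2 ran from -0.08 to 0.15, and the averaged change of Sephs2 from -0.03 to 0.10. Members called with the Keap1 mutation and AlbCre ran from 0 to 1, the 1 being Sepsecs without replicate 4 of the Keap1 mutant with AlbCre. Of all genes, 1092 of 15781 were called in that case.

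With 1 library left out, the difference in the ratio of Sephs2 to Sephs1 ran from 0.36 to 0.53 with AlbCre in Keap1 wild type, from -0.07 to 0.09 in the mutant and from 0.18 to 0.28 averaged. That of Secisbp2 to Secisbp2l ran from 0.13 to 0.28 in the mutant, from 0.13 to 0.27 averaged, from 0.14 to 0.27 with the Keap1 mutation alone, and, most widely, from 0.07 to 0.34 with AlbCre in Keap1 wild type and from 0.06 to 0.33 with the Keap1 mutation and AlbCre. That of Sephs2 to the other members ran from -0.34 to -0.21 in the mutant, from -0.06 to 0.04 averaged and from 0.22 to 0.42 with the Keap1 mutation alone, and that of Sephs2 to the other selenoproteins from 0.34 to 0.58 averaged, from 0.46 to 0.95 in Keap1 wild type and from -0.50 to -0.02 with the Keap1 mutation and AlbCre. In 14 of 192 such cases the unadjusted exact permutation p (two-sided) went under 0.05, with adjusted values not recomputed. For Sephs2 to Sephs1 these were the cases without Trsp fl/fl::AlbCre replicate 3 (0.53, exact p = 0.029, in Keap1 wild type, and 0.28, p = 0.046, averaged) and, averaged, without Keap1 mutant replicate 1 (0.26, p = 0.036) and Keap1 mutant with AlbCre replicates 1 and 3 (both 0.26, p = 0.044 and 0.043). For Secisbp2 to Secisbp2l they were without Trsp fl/fl replicate 1 (exact p = 0.029 for the Keap1 mutation and 0.041 averaged), Trsp fl/fl::AlbCre replicate 4 (0.022, averaged) and Keap1 mutant with AlbCre replicate 2 (0.029 in the mutant and 0.017 averaged). For Sephs2 to the other members they were without Keap1 mutant with AlbCre replicate 2 and Trsp fl/fl replicate 4 (both 0.029), and for Sephs2 to the other selenoproteins without Trsp fl/fl::AlbCre replicate 3 (0.024) and Keap1 mutant with AlbCre replicate 1 (0.047).

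The number of all genes called at an adjusted p under 0.05 depended more on the settings. With AlbCre in Keap1 wild type it was 88, 44 with only the compared groups in the fit, and 47 to 108 with 1 library left out. In the mutant it was 126, and 228 under quantile normalization, 319 under library totals, 73 with only the compared groups, and 40 to 381 with 1 library left out. For the Keap1 mutation without AlbCre it was 14, and 9 with voom, 7 without trend, 4 with only the compared groups and 2 to 24 with 1 library left out. With AlbCre it was 327, and 516 under library totals, 144 with only the compared groups and 130 to 1092 with 1 library left out. For the averaged effect it was 262, and 489 under library totals and 122 to 355 with 1 library left out. For the interaction it was 15, and 9 with a constant of 0.5, 8 under the stricter filter, 7 with voom and 10 to 43 with 1 library left out. The share of called genes that were higher was 47.6%, 37.6% and 55.3% for AlbCre in the mutant, the Keap1 mutation with AlbCre and the averaged effect, but 79.3%, 67.1% and 78.3% under library totals and 61.4%, 47.1% and 57.7% under quantile normalization. Genes of the pathway lists called for the Keap1 mutation with AlbCre were 2 of 81 with all libraries, where 2.07% of all genes were called. Without replicate 1 of the Keap1 mutant with AlbCre they were 0 of 81, where 1.03% of all genes were called.

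The labels do not tie equal replicate numbers together. Deviations of same-numbered libraries correlated between -0.315 and 0.31, only 4 of 24 pairs were over 0.1, and 0 of 16 libraries correlated best with their own number in every other genotype. With the replicate number as a block, 0 members were called in every comparison, and all genes called were 70 and 74 for AlbCre in Keap1 wild type and mutant, 6 and 227 for the Keap1 mutation without and with AlbCre, 164 averaged and 10 for the interaction. Pstk, with 45 to 82 reads per library, and Trnau1ap, with 96 to 174, carry the largest counting error of the 9.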
